A study of Mus musculus with 38 samples.

Results

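The basement membrane collagens and nidogens are 10 genes that were chosen by name: Col4a1, Col4a2, Col4a3, Col4a4, Col4a5 and Col4a6, which encode the chains of type IV collagen, Col15a1 and Col18a1, and the nidogen genes Nid1 and Nid2. All 10 were among the 29564 gene symbols of the deposited tables, and all 10 passed the filter on low counts that left 13765 genes for testing. They were followed in the left ventricle of 38 wild-type C57BL6 mice, 1 RNA-seq library per mouse. The non_failing group (n = 8) received vehicle and no disease model. The other groups carried a model of heart failure with preserved ejection fraction (HFpEF), made with high-fat diet and L-NAME, a blocker of nitric oxide synthesis, and were dosed orally with vehicle (HFpEF+Veh, n = 8), with TYA-018, an inhibitor of the deacetylase HDAC6 (HFpEF+TYA-018, n = 11), or with empagliflozin, an inhibitor of the glucose transporter SGLT2 (HFpEF+SGLT2i, n = 11). The labels give the mice as female and the methods of the study give male mice, so the sex is left unstated here. Each library was a whole piece of tissue, in which fewer cells of a type and less RNA per cell cannot be told apart.

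Basement membranes are thin sheets of matrix that wrap capillaries, smooth muscle cells and every cardiomyocyte. Their network is built from type IV collagen, whose chains fold into trimers: α1 and α2 chains form the trimer found in nearly all basement membranes, while α3, α4 and α5, or α5 and α6, form trimers known best from kidney, lung, skin and smooth muscle. Nidogens link the collagen network to laminin, and the collagens XV and XVIII sit at the outer face of the sheet, where collagen XVIII carries the fragment known as endostatin. The type IV collagen genes lie in head-to-head pairs, each pair transcribed in opposite directions from a shared stretch of DNA.

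Between 21451631 and 59280407 reads were assigned to genes in a library (median 29527632), and group medians ran from 28763771 to 29840450. Liver transcripts were highest in library V2523 of HFpEF+Veh, where 8 hepatocyte markers summed to 1672 counts per 1000000 reads (CPM) against a group median of 6.72. They were also present in every non_failing library (29.9 to 415 CPM, median 68.9), while HFpEF+TYA-018 ran from 1.71 to 4.71 CPM and HFpEF+SGLT2i from 2.25 to 16.0 CPM. All 8 cardiomyocyte markers were detected in every group, as the tissue label requires, and their summed level ran from 29811 to 37150 CPM in HFpEF+Veh and from 35496 to 47352 CPM in non_failing. Library V2571 of HFpEF+SGLT2i had the highest endothelial sum (1965 CPM) and the lowest cardiomyocyte sum (23960 CPM) of its group. The counts of members called and the members with the largest differences against HFpEF+Veh are given with and without V2523 and V2530, the second for a reason described with Col4a3.

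The head-to-head arrangement was read from the GENCODE annotation of GRCm38. Col4a1 (chromosome 8, 11198423 to 11312826, minus strand) and Col4a2 (11312805 to 11449287, plus strand) have annotated starts that overlap by 22 bases, a small part of their longest transcripts of 6615 and 6450 bases. Col4a4 (chromosome 1, 82448423 to 82586849, minus strand) and Col4a3 (82586921 to 82722059, plus strand) are separated by 71 bases, and Col4a6 (chromosome X, 141165403 to 141474076, minus strand) and Col4a5 (141475385 to 141689234, plus strand) by 1308 bases. RefSeq promoter windows of 300 bases (GRCm38.p6, 250 before to 50 after the gene's start) were matched for 8 of the 10 genes. The windows of Col4a1 (chr8:11312777-11313076, minus strand) and Col4a4 (chr1:82586800-82587099, minus strand) are shown because each also contains the annotated start of its partner. Capitals mark the bases from 1 start to the other, 22 in the first window and 73 in the second.
Col4a1: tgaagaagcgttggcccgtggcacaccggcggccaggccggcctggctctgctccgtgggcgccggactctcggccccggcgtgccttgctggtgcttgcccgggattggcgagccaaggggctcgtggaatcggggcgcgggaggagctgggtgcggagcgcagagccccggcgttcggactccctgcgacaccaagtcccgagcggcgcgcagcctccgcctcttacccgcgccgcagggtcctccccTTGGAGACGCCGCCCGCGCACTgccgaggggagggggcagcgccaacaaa
Col4a4: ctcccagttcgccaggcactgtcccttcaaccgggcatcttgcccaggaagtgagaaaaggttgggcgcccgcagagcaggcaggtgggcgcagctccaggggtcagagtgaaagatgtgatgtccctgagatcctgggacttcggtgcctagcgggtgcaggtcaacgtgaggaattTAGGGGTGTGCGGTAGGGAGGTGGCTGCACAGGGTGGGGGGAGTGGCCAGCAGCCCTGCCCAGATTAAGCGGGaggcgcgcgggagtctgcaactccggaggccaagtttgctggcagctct

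The windows of Col4a6 (chrX:141474027-141474326, minus strand) and Col15a1 (chr4:47207762-47208061, plus strand) are shown because these were the members whose difference between groups passed the test below. Here capitals mark a GC box, GGGCGG on either strand.
Col4a6: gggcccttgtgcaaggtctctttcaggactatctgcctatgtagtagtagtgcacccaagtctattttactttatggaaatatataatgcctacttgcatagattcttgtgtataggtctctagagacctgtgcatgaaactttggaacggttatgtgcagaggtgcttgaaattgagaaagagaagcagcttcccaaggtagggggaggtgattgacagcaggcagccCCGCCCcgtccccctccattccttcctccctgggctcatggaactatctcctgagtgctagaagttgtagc
Col15a1: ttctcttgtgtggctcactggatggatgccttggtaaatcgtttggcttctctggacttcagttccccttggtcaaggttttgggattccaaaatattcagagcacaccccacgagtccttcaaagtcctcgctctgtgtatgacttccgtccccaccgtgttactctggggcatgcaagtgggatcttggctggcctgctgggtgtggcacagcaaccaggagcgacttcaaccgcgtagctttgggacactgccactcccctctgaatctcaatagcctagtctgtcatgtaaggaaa

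Both strands were searched for the GC box, for CCAAT and for TATAAA. The Col4a1 window held 1 GC box, inside the stretch that overlaps with Col4a2, and 1 CCAAT. The Col4a6 window held 1 GC box and no CCAAT, and the windows of Col4a4 and Col15a1 held neither. TATAAA was in none of the 9 windows of members, Col18a1 having 2. Over all 32851 RefSeq windows of this length, a GC box was present in 35.7%, CCAAT in 37.4% and TATAAA in 13.6%. G and C made up 74.0% of the Col4a1 window and 48.3% of the Col4a6 window, against a median of 52.7% over all windows. The Col15a1 window was drawn around the RefSeq start, which is 149 bases before the start in GENCODE (chromosome 4, 47208161 to 47313167, plus strand).

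Levels between genes were compared in transcripts per 1000000 (TPM), which divides by transcript length. Col4a1 was the most abundant member, with a median of 30.0 TPM over the 38 libraries (16.5 to 48.3), and it stood above Col4a2 in 38 of 38 libraries. Col4a2 had a median of 24.4 TPM, Col15a1 20.2 TPM, Nid1 11.3 TPM and Col4a5 7.91 TPM. Col4a2 exceeded Col15a1 in 26 of 38 libraries, so the order of these neighbours was not fixed. Col18a1 and Nid2 followed at 2.11 and 1.98 TPM, and Col18a1 was the higher of them in 23 of 38 libraries. The 3 lowest members were Col4a4 (0.799 TPM), Col4a3 (0.332 TPM) and Col4a6 (0.180 TPM).

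Col4a1 made up a median of 29.6% and Col4a2 24.1% of the summed TPM of the 10 genes, while Col4a3, Col4a4 and Col4a6 made up 0.330%, 0.759% and 0.173%. Col4a5 was the exception among the minor chains, at a median of 48.5 times the TPM of its neighbour Col4a6 and 0.275 times that of Col4a1. Counts behind Col4a6 were low, with a median of 45.5 reads per library and 6 reads in library V2504.

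**Figure D1:**
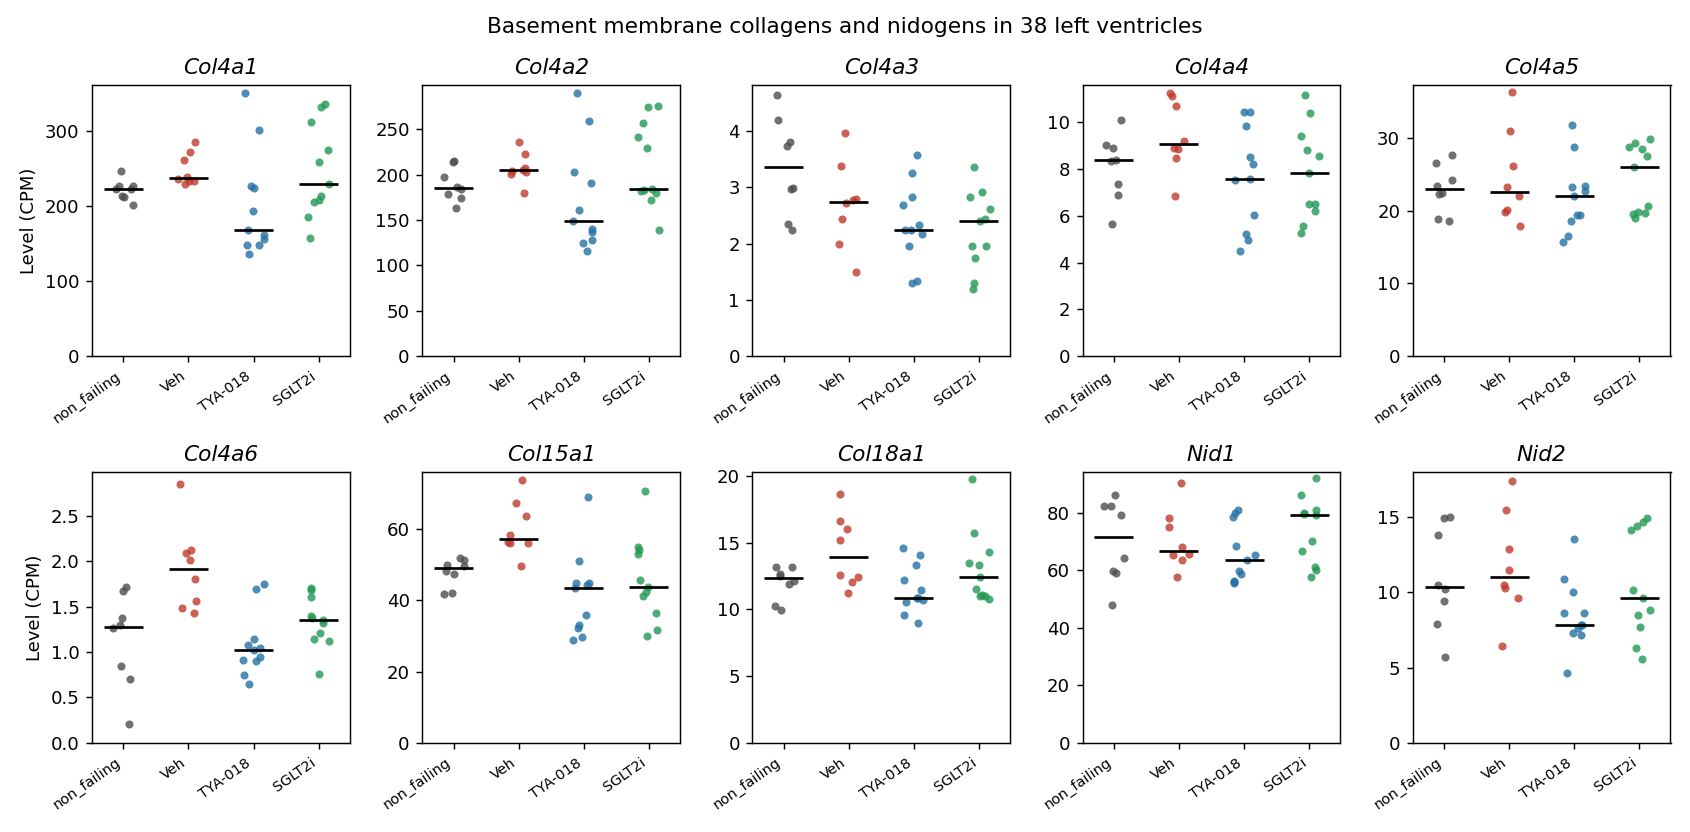
Level of each gene in CPM (vertical axes, from 0) in every library, by group on the horizontal axes; points are mice and bars are group medians. Col15a1 and Col4a6 lay highest in HFpEF+Veh, and 2 HFpEF+TYA-018 libraries stood above all HFpEF+Veh libraries in Col4a1.

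The comparison of HFpEF+Veh with non_failing asked what the model did to these genes. None of the 10 passed edgeR's quasi-likelihood test at an adjusted p of 0.05, whereas 3.15% of the genes tested did; 3 of the 10 had an unadjusted p under 0.05, against 15.9% of all genes. DESeq2 and limma each called 1 member, Col4a6, beside 4.35% of all genes with DESeq2 and 3.24% and 3.25% with limma at pseudocounts of 1 and 0.1. The log2 fold change was positive for 9 of 10 members and for 52.3% of all genes, with a median of 0.15 over the members and 0.01 over all genes. Without V2523 and V2530, 8 of 10 members were positive beside 50.6% of all genes, and none passed beside 2.81%.

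Col4a6, whose chain joins α5 in the trimer of smooth muscle, had the largest fitted difference. It was at 0.203 CPM in the lowest non_failing library, at a median of 1.28 and at 1.71 in the highest, and at 1.43, 1.91 and 2.85 CPM in HFpEF+Veh. The groups overlapped, although 5 of 8 HFpEF+Veh libraries lay above every non_failing library. The log2 fold change was 0.75 ± 0.25 (SE, adjusted p = 0.0895). Without V2523 and V2530 it was 0.85 with an adjusted p of 0.0773.

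Col15a1, the collagen that ties the basement membrane to the matrix around it, ranged from 41.8 to 51.9 CPM in non_failing (median 49.1) and from 49.7 to 73.9 CPM in HFpEF+Veh (median 57.4). Of the 8 HFpEF+Veh libraries, 7 lay above the highest non_failing library, V2532 being the exception. The log2 fold change was 0.33 ± 0.15 (SE) with an adjusted p of 0.25, and it became 0.0353 when only these 2 groups were fitted, a fit that called 2.59% of all genes. For Col18a1 the log2 fold change came to 0.26 ± 0.12 (SE), with 0.253 as its adjusted p. Without V2523 and V2530 the values were 0.33 for Col15a1 (adjusted p = 0.315) and 0.24 for Col18a1 (adjusted p = 0.334).

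For the remaining members the log2 fold changes were 0.17 for Col4a1, 0.13 for Col4a2, 0.22 for Col4a4, 0.09 for Col4a5, 0.01 for Nid1 and 0.11 for Nid2, each with a 95% confidence interval that included 0. Col4a3 alone had a negative value, -0.32 (95% confidence interval -0.75 to 0.10). The value of Nid2 fell to 0.00179 when V2532 was left out.

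The comparison of HFpEF+TYA-018 with HFpEF+Veh asked what the HDAC6 inhibitor changed in diseased hearts. Col15a1 and Col4a6 were lower with TYA-018, and they were the 2 of 10 members that passed edgeR's test, against 1.93% of all genes in either direction and 1.1% with lower levels. All 10 members had a negative log2 fold change, where 51.8% of all genes did, and 6 of 10 had an unadjusted p under 0.05 with lower levels, against 8.73% of all genes. The median log2 fold change was -0.31 over the members and -0.01 over all genes. With V2523 and V2530 left out, all 10 values stayed negative, beside 50.4% of all genes. No member passed in that fit, which called 1 gene of 13871 (0.00721%), so calls were lost among all genes and not only among the members.

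Col15a1 was at 29.0 CPM in the lowest HFpEF+TYA-018 library, at a median of 43.6 and at 69.1 in the highest. The HFpEF+Veh libraries began at 49.7 CPM, so 9 of 11 treated libraries lay below all of them, with V2546 and V2570 as the exceptions. The log2 fold change was -0.53 ± 0.14 (SE, adjusted p = 0.0315, edgeR), a level 0.692 times that of vehicle. Without V2523 and V2530 it stayed at -0.53 with an adjusted p of 0.105. The call held in 30 of 38 fits that each left out 1 library, with adjusted p between 0.00313 and 0.0618, and was lost without V2521, V2523, V2529, V2543, V2547, V2551, V2552 or V2555.

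Col4a6 was at 0.653, 1.02 and 1.75 CPM in the lowest, median and highest HFpEF+TYA-018 library, and 9 of 11 lay below every HFpEF+Veh library. The log2 fold change was -0.82 ± 0.23 (SE, adjusted p = 0.0472, edgeR), or 0.565 times the vehicle level. The call sat at the threshold: it held in 12 of 38 fits with 1 library left out, in which the log2 fold change ran from -0.92 to -0.72 and the adjusted p from 0.00921 to 0.0824. These were the fits without V2501, V2502, V2504, V2508, V2510, V2523, V2532, V2550, V2565, V2570, V2571 or V2572. Without V2523 and V2530 the log2 fold change was -0.92 with an adjusted p of 0.0817. Col4a6 and Col4a1, together with Col18a1, were also among the genes that the study itself displayed from these samples, so their direction is not independent of that choice.

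**Figure D2:**
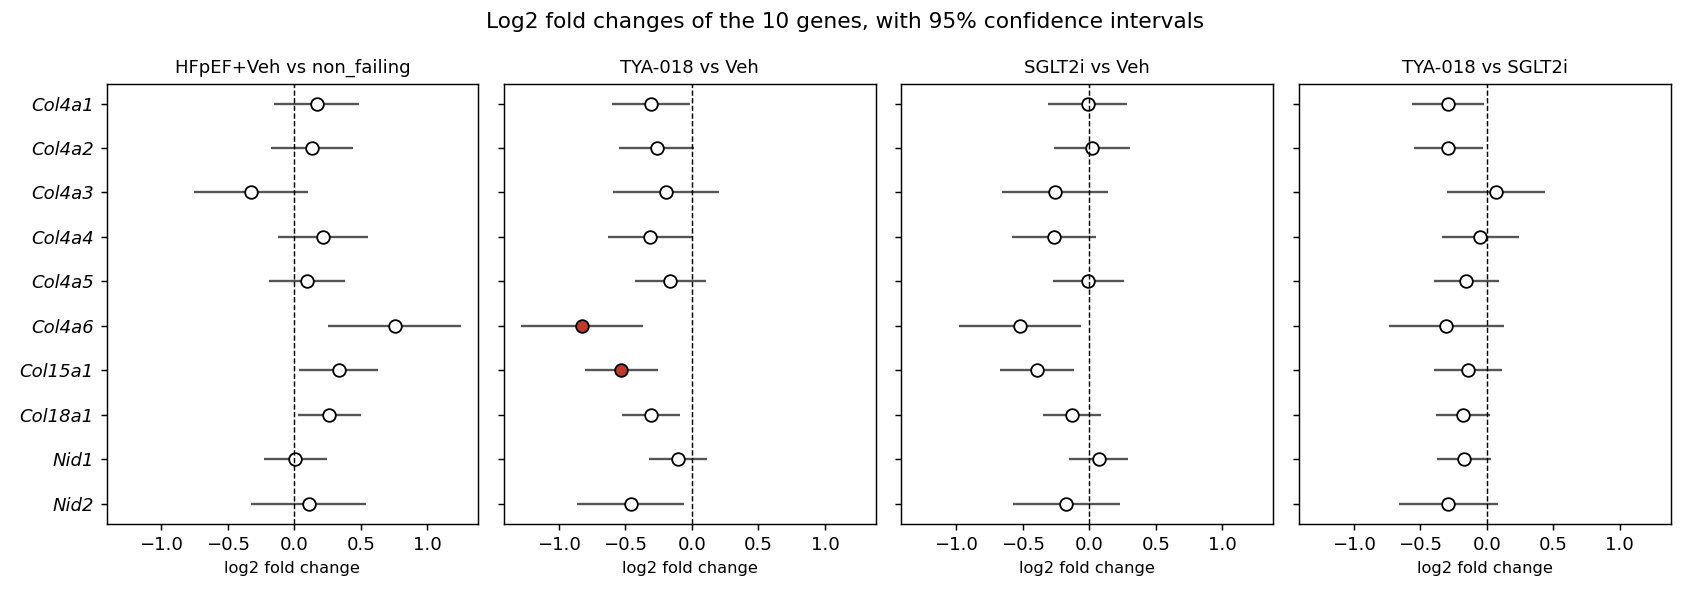
Log2 fold change of each gene (horizontal axes) in 4 comparisons, with 95% confidence intervals from edgeR as bars; filled points passed an adjusted p of 0.05. The filled points are Col4a6 at -0.82 and Col15a1 at -0.53 in TYA-018 against vehicle.

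Among the members that did not pass, Col18a1 stood at -0.31 ± 0.11 on the log2 scale (SE, adjusted p = 0.119). Its CPM ran from 8.99 to 14.6 in HFpEF+TYA-018 (median 10.9) and from 11.3 to 18.6 in HFpEF+Veh (median 13.9), with V2523 the highest vehicle library. Nid2 stood at -0.46 ± 0.20 (SE, adjusted p = 0.216) and Nid1, the more abundant nidogen, at -0.10 (95% confidence interval -0.32 to 0.12). The values became -0.29 for Col18a1 (adjusted p = 0.21) and -0.43 for Nid2 (adjusted p = 0.344) without V2523 and V2530. Col4a4 was at -0.31, Col4a3 at -0.19 and Col4a5 at -0.16 on the same scale. With 1 library left out, Col4a3 ran from -0.28 to -0.09, Col4a5 from -0.23 to -0.07 and Nid1 from -0.14 to -0.04.

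Col4a1 and Col4a2 split the HFpEF+TYA-018 group. Col4a1 was at 136.8 CPM in the lowest library, at a median of 168.5 and at 351.4 in the highest, while HFpEF+Veh ran from 229.5 to 286.1 CPM. Thus 9 of 11 treated libraries lay below every vehicle library and the other 2, V2543 (351.4 CPM) and V2570 (301.8 CPM), lay above every one. Col4a2 had the same 2 libraries on top, at 290.3 and 259.8 CPM against 236.2 CPM in the highest vehicle library. The log2 fold changes were -0.30 ± 0.15 (SE, adjusted p = 0.266) for Col4a1 and -0.26 ± 0.14 (SE, adjusted p = 0.324) for Col4a2. Leaving out V2543 moved the first to -0.42 with an adjusted p of 0.0832.

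These 2 libraries differed in their other members. V2543 had the lowest Col4a3 (1.29 CPM) and Col4a4 (4.48 CPM) of its group and the highest Nid1 (81.0 CPM) and Nid2 (13.6 CPM), with Col15a1 at 32.3 CPM. Its 5 mesothelial and epicardial markers summed to 35.4 CPM, the highest of the group, against a group median of 9.54 CPM. V2570 had the highest Col15a1 (69.1 CPM), Col18a1 (14.6 CPM) and Col4a4 (10.4 CPM) of its group.

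The comparison of HFpEF+SGLT2i with HFpEF+Veh asked the same of empagliflozin, against the same vehicle libraries. None of the 10 members passed edgeR's test, against 0.85% of all genes; 2 of 10, Col15a1 and Col4a6, had an unadjusted p under 0.05, where 10% of all genes did. DESeq2 called no member either, beside 0.835% of all genes. Both limma fits and edgeR without V2523 and V2530 called no gene at all (0%), so their count of 0 members carries no information on the members. Col15a1 ranged from 30.1 to 70.8 CPM (median 43.9), with 7 of 11 libraries below every vehicle library, and its log2 fold change was -0.39 ± 0.14 (SE, adjusted p = 0.219). Col4a6 ranged from 0.757 to 1.71 CPM (median 1.36), with 8 of 11 libraries below every vehicle library, and its log2 fold change was -0.52 ± 0.23 (SE, adjusted p = 0.399). Leaving out V2523 and V2530 gave -0.39 (adjusted p = 0.565) and -0.62 (adjusted p = 0.597).

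The common chains gave values near 0 with empagliflozin, -0.01 for Col4a1 (95% confidence interval -0.31 to 0.28) and 0.02 for Col4a2 (-0.26 to 0.31). Col4a1 was again spread widely, from 157.7 to 336.2 CPM, with 5 of 11 libraries below and 3 of 11 above all vehicle libraries. Nid1 was at 0.07, Nid2 at -0.17 and Col18a1 at -0.13 on the log2 scale. With 1 library left out, Nid1 ran from 0.03 to 0.13, Nid2 from -0.26 to -0.07 and Col18a1 from -0.21 to -0.07.

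The drugs were compared directly, each at the dose and time used in the study. The series title and the study's methods give different treatment lengths, so the length is left unstated here. None of the 10 members passed edgeR's test between HFpEF+TYA-018 and HFpEF+SGLT2i, nor did any other gene (0% called), while 2 of 10 members had an unadjusted p under 0.05 against 13.2% of all genes. DESeq2 called no member beside 1.34% of all genes, and both limma fits called no gene (0%). The 2 members were Col4a1 at -0.29 ± 0.13 and Col4a2 at -0.29 ± 0.13 (log2 fold change, SE), both lower with TYA-018 and with adjusted p of 0.339 and 0.327. The difference for Col15a1 was -0.14 with a 95% confidence interval from -0.39 to 0.12, and for Col4a6 -0.30 with one from -0.73 to 0.13. With 1 library left out, the difference for Col15a1 ran from -0.24 to -0.06.

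Against non_failing, neither treated group had a member past edgeR's test, where 7.39% of all genes passed with TYA-018 and 6.45% with empagliflozin; 1 of 10 members had an unadjusted p under 0.05 in each, against 22% and 19.6% of all genes. That member was Col4a3. It was at 2.24, 3.36 and 4.65 CPM in the lowest, median and highest non_failing library, at 1.29, 2.24 and 3.57 in HFpEF+TYA-018 and at 1.20, 2.40 and 3.37 in HFpEF+SGLT2i. All 11 HFpEF+SGLT2i libraries lay below the non_failing mean and 5 below every non_failing library. The log2 fold changes were -0.52 ± 0.20 (SE, adjusted p = 0.0998) with TYA-018 and -0.58 ± 0.20 (SE, adjusted p = 0.0655) with empagliflozin, the second with an adjusted p of 0.0366 in DESeq2, which called 8.2% of all genes there. Col15a1 was at -0.20 and -0.06 and Col4a6 at -0.07 and 0.23 against non_failing, with 95% confidence intervals that included 0. With 1 library left out, Col15a1 ran from -0.30 to -0.16 with TYA-018 and from -0.14 to -0.01 with empagliflozin. Col4a6 ran from 0.07 to 0.34 with empagliflozin.

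Col4a3 also showed how unit and library matter. In library V2530 of HFpEF+Veh it had 80 reads and 2.77 CPM, the fourth highest of its group, but 0.940 TPM, the highest of all 38 libraries. The effective transcript length used to make that TPM was 2224 bases in V2530 and 4179 to 7535 bases (median 6123) in the other 37 libraries. Effective lengths of Col15a1 ran from 1287 to 2830 bases and of Col4a5 from 1649 to 3045 bases, against longest annotated transcripts of 5172 and 6536 bases. Single genes were tested on counts, which do not use that length, whereas the ratios below were tested in TPM, which does, and again in CPM.

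**Figure D3:**
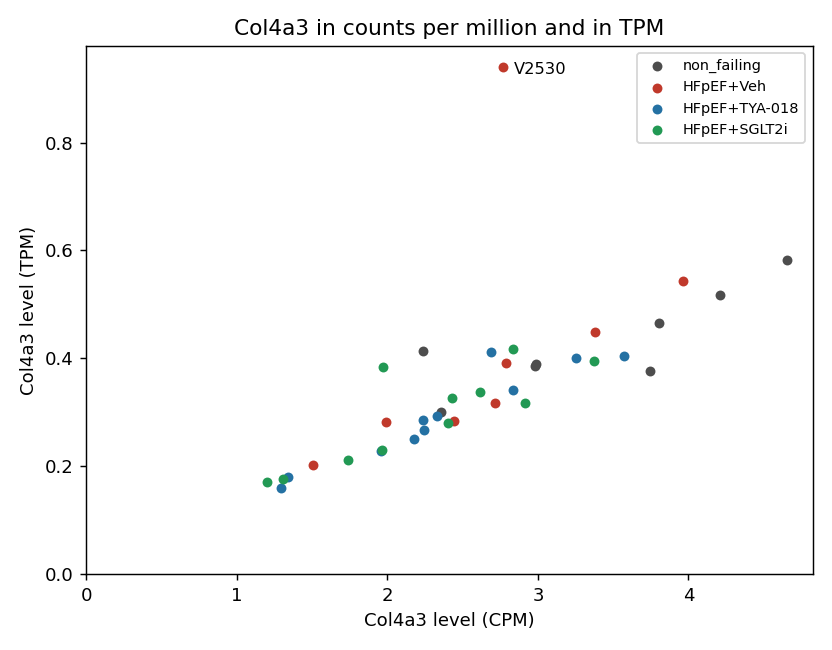
Col4a3 in CPM (horizontal axis) and TPM (vertical axis), both from 0, 1 point per library coloured by group. V2530 lay at 2.77 CPM and 0.940 TPM, the highest TPM of all libraries.

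Ratios between partner genes were tested with permutations of the libraries, 6 ratios in 6 comparisons, with p-values adjusted over all 36. The ratio of Col4a5 to Col4a6 was the 1 that passed in TPM. It was 21.1 in the lowest HFpEF+Veh library, 34.0 at the median and 50.7 in the highest, and 45.9, 58.3 and 102.7 in HFpEF+TYA-018. The mean log2 ratio was higher by 0.84 with TYA-018 (5.93 ± 0.35 against 5.10 ± 0.43, SD, n = 11 and 8; exact two-sided permutation p = 0.000132, adjusted p = 0.00476). It passed in all 38 fits with 1 library left out. Those that left out a non_failing or HFpEF+SGLT2i library repeated the same test, which used only the groups compared. The ratio also passed without V2523 and V2530 (0.86, adjusted p = 0.0233). In CPM it passed in the same comparison (0.70, adjusted p = 0.0148), in HFpEF+Veh against non_failing (a difference of -0.88, adjusted p = 0.0448) and in HFpEF+SGLT2i against HFpEF+Veh (0.53, adjusted p = 0.0448), by the same exact permutation tests. Since Col4a6 was itself lower, this ratio is not a separate finding from that gene.

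The ratio of Col4a1 to Col4a2 hardly moved. It lay between 1.05 and 1.47 in all 38 libraries, with group medians of 1.24 in non_failing, 1.23 in HFpEF+Veh, 1.23 in HFpEF+TYA-018 and 1.25 in HFpEF+SGLT2i. The ratio of Col4a3 to Col4a4 had a median of 0.565 in non_failing and of 0.398 to 0.408 in the HFpEF groups. In TPM with all libraries no difference in this ratio passed, the smallest adjusted p being 0.124, for HFpEF+SGLT2i against non_failing. With 1 library left out, it passed against non_failing for HFpEF+Veh without V2530 (-0.62, exact permutation test, adjusted p = 0.0224). By the same test it passed for HFpEF+TYA-018 without V2546 (-0.51, adjusted p = 0.00452) and for HFpEF+SGLT2i without V2562 (-0.60, adjusted p = 0.0185). In CPM it passed in all 3 HFpEF groups against non_failing, with differences in log2 ratio of -0.56 for HFpEF+Veh, -0.40 for HFpEF+TYA-018 and -0.54 for HFpEF+SGLT2i (exact permutation tests, adjusted p = 0.0252, 0.0488 and 0.0349), and in TPM without V2523 and V2530 for HFpEF+Veh (-0.59, adjusted p = 0.048).

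Pooled over groups, head-to-head partners varied together from mouse to mouse. After each group's mean was subtracted from log2 CPM, Col4a1 and Col4a2 had a Pearson r of 0.95 and a Spearman rho of 0.89 over 38 libraries. The values were 0.65 and 0.67 for Col4a3 and Col4a4, and 0.45 and 0.49 for Col4a5 and Col4a6. Adjusted over 6 pairs, the permutation p for r was 6e-05, 6e-05 and 0.00181 (the first from the smallest p that 100000 permutations can give), and for rho 4e-05, 4e-05 and 0.00201, with permutations made inside groups. Without the 2 libraries farthest from the median of the first gene, r was 0.91, 0.60 and 0.42.

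The nidogens also varied together, with r = 0.66 and rho = 0.66 (permutation, adjusted p = 6e-05 and 4e-05) and r = 0.67 without the 2 farthest libraries. For Col18a1 and Col15a1 r was 0.41 and rho 0.48 (adjusted permutation p = 0.023 and 0.00542). Here V2571, high in Col18a1 (19.8 CPM) and low in Col15a1 (31.8 CPM), was 1 of the 2 libraries farthest out, and r was 0.67 without them. For Col4a5 and Col4a1 the pooled r was -0.04 and rho 0.00 (adjusted permutation p = 0.808 and 0.985).

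The relations were not alike in every group. For Col4a1 and Col4a2 r was 0.98 in both HFpEF+TYA-018 and HFpEF+SGLT2i (n = 11 each), 0.69 in HFpEF+Veh and 0.25 in non_failing (n = 8 each). For Col4a5 and Col4a6 it was 0.78 in non_failing and 0.08 in HFpEF+Veh, with 0.61 and 0.51 in HFpEF+TYA-018 and HFpEF+SGLT2i. For Col4a3 and Col4a4 it ran from 0.53 to 0.79 and for Nid1 and Nid2 from 0.55 to 0.84. For Col18a1 and Col15a1 it was 0.72 in HFpEF+Veh and 0.86 in HFpEF+TYA-018, but 0.06 in non_failing and 0.03 in HFpEF+SGLT2i. The pooled value near 0 for Col4a5 and Col4a1 held opposite values, 0.73 in non_failing and -0.56 in HFpEF+Veh, beside -0.01 and -0.05 in the treated groups. The coefficient of variation of Col4a1 CPM was 6.02% in non_failing and 8.52% in HFpEF+Veh, but 34.4% in HFpEF+TYA-018 and 24.5% in HFpEF+SGLT2i. Differences between these group values were not tested.

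**Figure D4:**
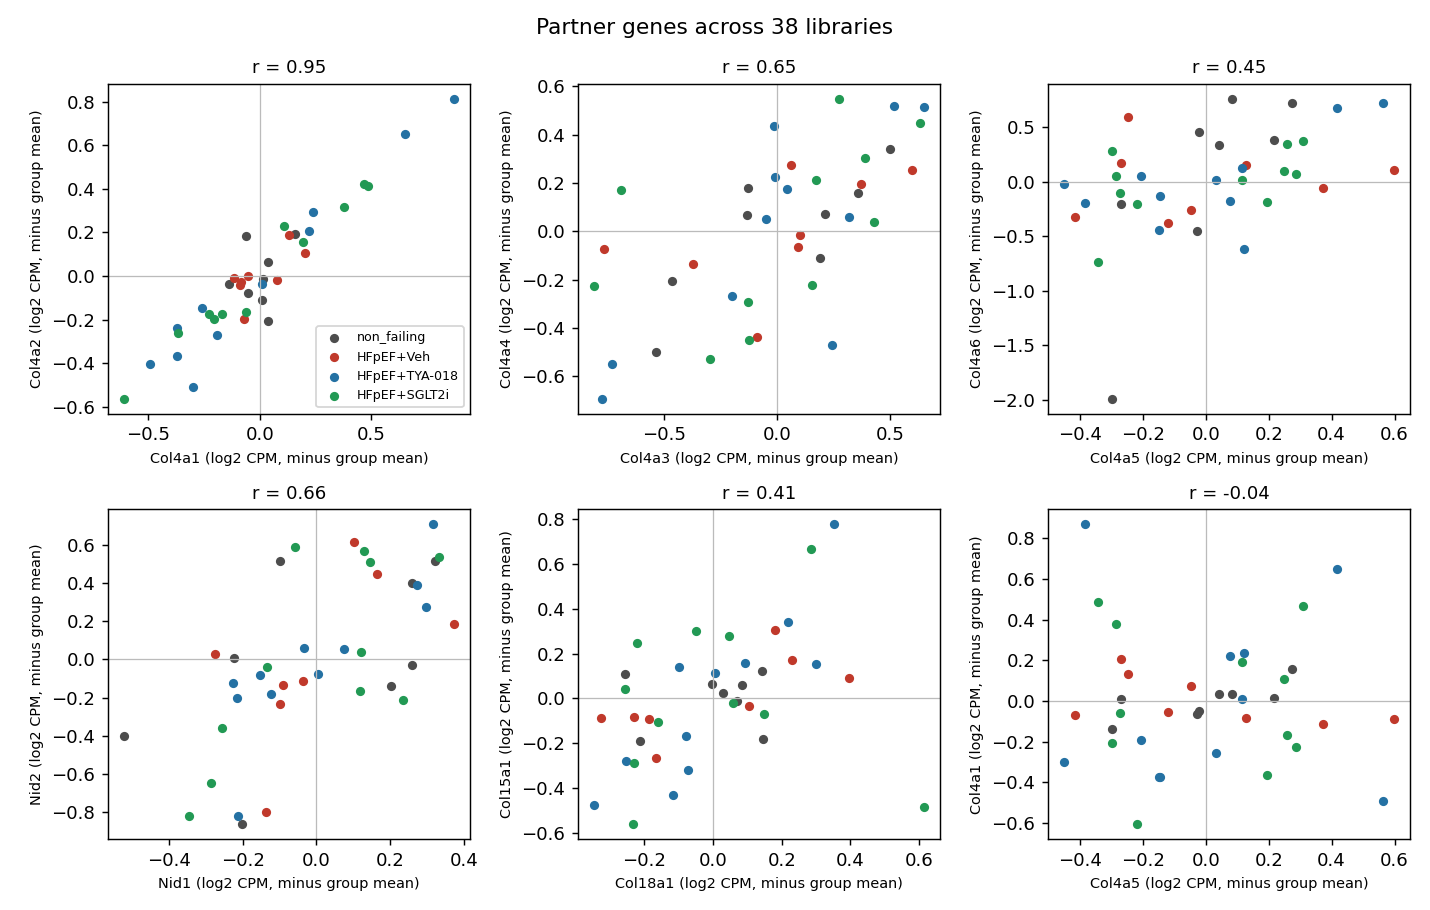
Log2 CPM minus the group mean for 6 pairs of genes, 1 point per library coloured by group, with Pearson r over 38 libraries above each panel. Col4a1 and Col4a2 follow a line (r = 0.95) and Col4a5 and Col4a1 do not (r = -0.04).

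Over all pairs of members, given as a description without a test, the genes of the α1 and α2 chains and the nidogens correlated with each other (6 pairs, r from 0.44 to 0.95). So did Col4a3 to Col4a6 (6 pairs, r from 0.40 to 0.67, with Col4a4 and Col4a5, which lie on different chromosomes, at 0.67). Between these sets the 16 pairs ran from -0.27 to 0.30 with a median of 0.02. Col15a1 was positive with every other member, from 0.32 with Col4a6 to 0.60 with Col4a3. The libraries share depth, scaling and tissue composition in these values.

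**Figure D5:**
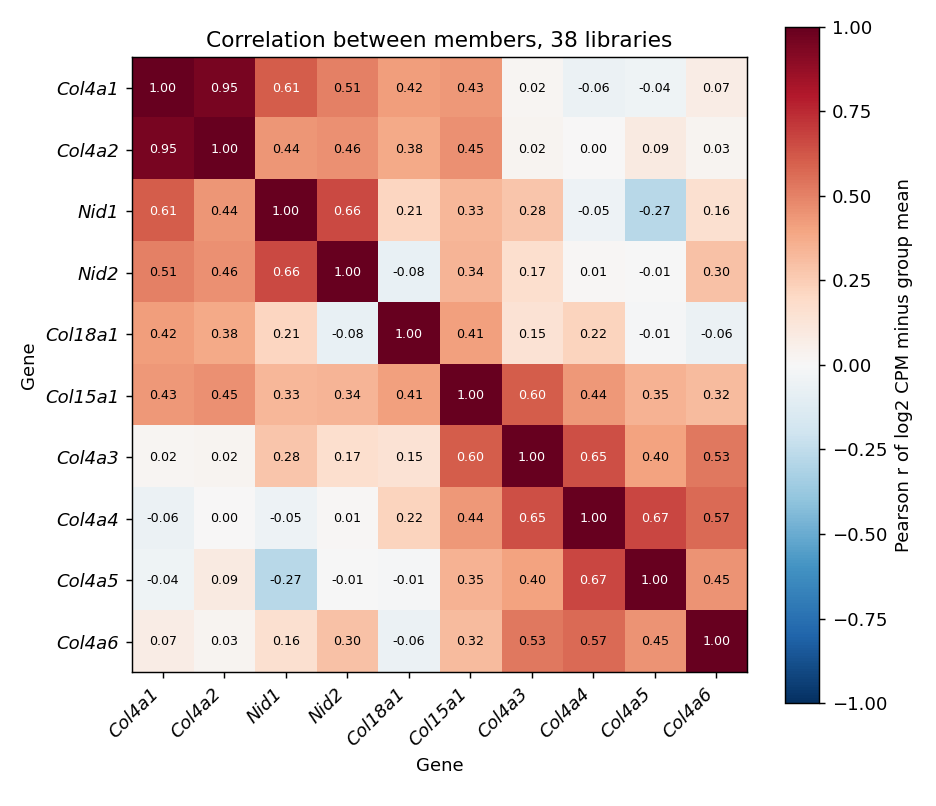
Pearson r between all pairs of the 10 genes (both axes) over 38 libraries, from log2 CPM minus the group mean, on a colour scale from -1 to 1. The upper left block holds Col4a1, Col4a2, Nid1 and Nid2 (0.44 to 0.95) and the lower right block Col4a3 to Col4a6 (0.40 to 0.67).

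The genes outside the set whose pattern was most like each member were taken by the same r. Col4a1 was followed most closely by Loxl2 (r = 0.79), which cross-links type IV collagen, Lasp1 and Gnai2, and Col4a2 by Col1a1 (r = 0.80), Zmiz1 and Crlf2. Col15a1 was most like the matrix collagens Col5a1 (r = 0.72), Col6a2 (r = 0.71) and Col6a1 (r = 0.70). Nid1 was most like Hnrnpf (r = 0.87), Cyfip1 and Mib1, and Nid2 most like Vash1 (r = 0.72). Col4a5 was most like Pla2r1 (r = 0.84), Col4a4 most like Abca8b (r = 0.79), Col4a3 most like Ltbp4 (r = 0.70), and Col18a1 most like Scarb1 (r = 0.71). For Col4a6 the top gene, Pcx, had r = 0.67 but rho = 0.29.

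The other basement membrane components, among them laminins, perlecan and agrin, were tested for 31 of 33 listed genes. In HFpEF+Veh against non_failing 5 of the 31 rose and 2 fell, beside 1.77% and 1.38% of all genes. Col8a1, a short-chain collagen of vessels, rose by 0.65 ± 0.17 (log2, SE, adjusted p = 0.0223, edgeR). Lamb3, a laminin chain gene, fell by 0.62 ± 0.13 (adjusted p = 0.0038) and Egflam, which encodes a ligand of dystroglycan, fell by 0.41 ± 0.10 (adjusted p = 0.0176). In HFpEF+TYA-018 against HFpEF+Veh the 1 gene that passed was the laminin chain Lama3, which fell by 0.72 (adjusted p = 0.0286), and 26 of 31 values were negative, where 1.1% of all genes fell and 51.8% were negative. With empagliflozin none passed, against 0.85% of all genes, and 22 of 31 were negative, against 48.4%.

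The genes that fold and cross-link collagen, the receptors, and the proteases with their inhibitors were read against the 1.77% of all genes that rose in HFpEF+Veh against non_failing. Of 21 folding and cross-linking genes, 1 rose in HFpEF+Veh against non_failing: Fkbp10, a collagen chaperone, at 0.56 ± 0.09 (log2 fold change, SE, adjusted p = 0.000228), and it stayed above non_failing in both treated groups (0.57 and 0.67). Of 22 proteases and inhibitors 1 rose, Mmp2, which cleaves type IV collagen, at 0.43 ± 0.10 (adjusted p = 0.00718). None of the 18 receptors passed in that comparison, and no gene of these 3 lists passed in either drug against vehicle, where 1.93% (TYA-018) and 0.85% (empagliflozin) of all genes did.

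The interstitial collagens, which form fibres and filaments between cells, were positive for 13 of 13 tested genes in HFpEF+Veh against non_failing and negative for 13 of 13 in each drug against vehicle, with medians of 0.27, -0.33 and -0.14. Over all genes 52.3% were positive in the first comparison, and 51.8% and 48.4% were negative with TYA-018 and empagliflozin. Of the 13 genes 2 passed, both in the first comparison, where 1.77% of all genes rose: Col6a3 at 0.57 ± 0.12 (adjusted p = 0.00502) and Col16a1 at 0.43 ± 0.12 (adjusted p = 0.031). The medians of the basement membrane members in the same comparisons were 0.15, -0.31 and -0.15.

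Markers of the cells that make basement membrane were read beside these values. The 8 fibroblast markers were negative for 8 of 8 in HFpEF+TYA-018 against HFpEF+Veh, where 51.8% of all genes were, and summed to 916 to 1920 CPM against 1002 to 2229 CPM. The 10 endothelial markers were negative for 9 of 10 and summed to 941 to 1245 CPM against 1025 to 1388 CPM. The 10 pericyte and smooth muscle markers summed to 634 to 971 CPM against 758 to 1008 CPM, and the 8 cardiomyocyte markers, positive for 7 of 8, to 31848 to 41154 CPM against 29811 to 37150 CPM. No marker of these 4 lists passed the test between these groups, and none was at 0 in every library of a group. The 8 hepatocyte markers all passed as lower with TYA-018 (median log2 fold change -5.91) and with empagliflozin (-5.60), where 1.93% and 0.85% of all genes passed. Their sums were 1672 CPM in V2523 and 3.04 to 41.9 CPM in the other 7 vehicle libraries. The fits without V2523 and V2530 called 1 gene with TYA-018 and 0 with empagliflozin over all genes. In HFpEF+Veh against non_failing the 8 cardiomyocyte markers were all negative and 4 passed (median -0.36), 2 of 8 fibroblast markers passed as higher (median 0.34) and 2 of 10 pericyte and smooth muscle markers passed as lower (median 0.05), while no endothelial or hepatocyte marker passed; over all genes 1.77% rose and 1.38% fell. Against non_failing, where 7.39% of all genes passed with TYA-018 and 6.45% with empagliflozin, 8 of 8 and 7 of 8 hepatocyte markers passed as lower (medians -5.56 and -4.99). There 1 of 8 and 4 of 8 cardiomyocyte markers passed as lower (medians -0.17 and -0.28), as did 0 and 3 of 4 tested mesothelial and epicardial markers. Of the fibroblast markers 1 passed as higher with TYA-018, and with empagliflozin 1 passed as higher and 1 as lower. Of the 10 pericyte and smooth muscle markers 1 passed as higher and 1 as lower with TYA-018 and none with empagliflozin, and no endothelial marker passed with either. Of the 3 tested atrial markers 1, Bmp10, passed as higher against non_failing in HFpEF+Veh (2.38), with TYA-018 (2.69) and with empagliflozin (3.39). The 5 erythroid markers were all positive in HFpEF+Veh against non_failing (median 1.26) and none passed. With TYA-018 against non_failing 1 of them passed as higher, Hbb-bs (1.15), and 1 of 4 Schwann cell markers as lower, Sox10 (-0.62). The part of these markers in the values of the members was not tested.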

How the data were processed

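Left ventricles of 38 mice were profiled by RNA-seq, 1 library per mouse, and grouped by sample title. Per the labels and the study's methods, the authors quantified reads with Salmon 1.6.0 against mouse transcripts and summed them per gene; the labels name a human build, which does not match the mouse symbols. The deposited tables hold expected counts, TPM and effective transcript length (unit other, in bases), and every column was mapped to a sample. The tables pair no identifiers with the symbols. The 10 members and all gene lists were chosen with earlier results of these data known.

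Expected counts were rounded and 13765 of 29564 genes were kept by edgeR's filterByExpr. The main test was edgeR 4.0.16 (quasi-likelihood, TMM, 4 groups in 1 model, R 4.3.3) with Benjamini-Hochberg adjustment over all genes tested, called at 0.05. CPM values use the TMM-scaled library size, and log2 CPM a prior count of 2. The study's own choice, log2(TPM + 1), was an alternative with limma 3.58.1, as were a pseudocount of 0.1, DESeq2 1.42.0, library size alone, an offset for the deposited length, no filter, 2 groups only, and leaving out libraries. Ratios used two-sided permutation tests, exact where a group had under 10 libraries and otherwise with 100000 resamples. Correlations used two-sided tests with 100000 permutations made inside groups. On simulated counts at these group sizes, TYA-018 against vehicle, 70% of 100 genes changed by 1.5 times and 100% of 100 changed by 2 times were recovered. These counts had the same dispersion for every gene, not taken from the members, so the recovery does not carry over to members with a wider spread.

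Depth was 21451631 to 59280407 assigned reads per library. No pair of libraries within a group agreed within sampling noise (lowest chi-square per degree of freedom 16.6, 166 pairs). Named genes were the 10 members, up to 4 called genes per list and comparison by smallest p, and the 3 genes most like each member. A named gene that the rule gave is not reported here. HFpEF+Veh serves several comparisons, which are therefore not independent.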

Additional observations from a re-analysis of the deposited data

Results flagged for a closer look

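Across 40 groups of 8 libraries (10 genes, non_failing and HFpEF+Veh, in CPM and in TPM), 1 extreme library stood apart by Dixon's gap test at its 95% critical value of 0.526, where chance gives about 1 in 20. This was Col4a3 in TPM in library V2530 of HFpEF+Veh, at 0.940 TPM, and it was not apart in CPM (2.77). Its effective length of 2224 bases is given beside it in the text above.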

How the results depend on the processing

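The 2 calls in HFpEF+TYA-018 against HFpEF+Veh, out of 10 members, depended on the setting. The count was 1 (Col4a6) with the length offset and with limma on log2(TPM + 1), which called 1.39% and 0.302% of all genes. It was 0 with limma on log2(TPM + 0.1), with only the 2 groups fitted and without V2523 and V2530. Those 3 fits called 0.173%, 0.437% and 0.00721% of all genes. Leaving out 1 library at a time gave 0 to 2 calls, 2 of them in 11 of 38 fits. These fits called from 1.21% of all genes (without V2530) to 2.86% (without V2570). In HFpEF+Veh against non_failing the count of 0 became 1 with DESeq2 and both limma fits (Col4a6) and with 2 groups only (Col15a1), and in HFpEF+SGLT2i against non_failing it became 1 with DESeq2 (Col4a3) and 0 to 1 with 1 library left out. The other 3 counts stayed at 0 in every alternative run. Ratio calls went from 1 to 6 in CPM, to 2 without V2523 and V2530, and to 1 to 2 with 1 library left out. Scaling by library size alone moved the median of all genes to -0.14 in HFpEF+TYA-018 against HFpEF+Veh and there added Col18a1 (-0.44, adjusted p = 0.0185). That fit called 7.96% of all genes. Unless stated above, the cause was not tested.

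Values near 0 changed sign. For Nid1 in HFpEF+Veh against non_failing the log2 fold change was -0.0158 with the length offset, -0.000279 without V2523 and V2530 and -0.0542 to 0.0555 with 1 library left out, and for Col4a5 -0.00503 to 0.150 with 1 left out. In HFpEF+SGLT2i against HFpEF+Veh, Col4a2 was -0.0497 with library size alone, -0.0625 and -0.0647 with limma, -0.0125 without V2523 and V2530 and -0.0262 to 0.0687 with 1 left out. There Col4a5 was 0.00144 with the length offset and -0.0646 to 0.0865 with 1 left out, Col4a1 -0.0667 to 0.0367 with 1 left out, and Nid1 -0.00629 with library size alone. In HFpEF+TYA-018 against HFpEF+SGLT2i, Col4a3 was -0.00577 and -0.0162 with limma and -0.00846 to 0.139 with 1 left out, and Col4a4 -0.105 to 0.0155. In HFpEF+TYA-018 against non_failing, Col4a5 was 0.0795 with the length offset and 0.0296 and 0.0305 with limma, and Col4a6 -0.228 to 0.0368 with 1 left out. In HFpEF+SGLT2i against non_failing with 1 left out, Col4a4 was -0.112 to 0.00312 and Nid2 -0.160 to 0.0131. The correlation of Col4a5 and Col4a1 was 0.0520 with library size alone, 0.00387 in TPM, 0.0892 without 2 libraries and 0.0670 without centring. No paired analysis was possible because the groups share no mouse numbers.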

Other observations

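For 5 of 10 members (Col4a1, Col4a2, Col4a3, Col4a4 and Col15a1) the coefficient of variation of CPM was higher in both treated groups than in non_failing and HFpEF+Veh, and for the other 5 it was not. The coefficient of variation of Col4a2 CPM was 9.73% in non_failing and 7.83% in HFpEF+Veh, but 33.3% in HFpEF+TYA-018 and 22.0% in HFpEF+SGLT2i, and that of Col15a1 was 8.19%, 12.7%, 28.1% and 25.7%. Col4a3 was nearly level, at 25.8%, 28.3%, 30.0% and 30.3%. Among those that did not follow this order, Nid1 was at 20.1%, 14.6%, 15.1% and 15.5%, and Col4a6 was widest in non_failing, at 45.4%, 24.3%, 32.1% and 20.8%. The differences in spread were not tested.

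Libraries V2543 of HFpEF+TYA-018 and V2571 of HFpEF+SGLT2i had in common the highest Col4a1 of their group (351.4 and 336.2 CPM) beside its lowest Col4a3 (1.29 and 1.20 CPM). V2572 of HFpEF+SGLT2i had nearly the same Col4a1 (332.3 CPM) with the highest Col4a3 of its group (3.37 CPM).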
